A study of Mus musculus with 31 samples.

Results

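Loss of the orphan nuclear receptor Rorb was examined at postnatal day 14 in mouse retinas that also carry a CrxpNrl transgene. Retinas labelled Rorb-/-;CrxpNrl (4 mice) were compared with retinas labelled +/+;CrxpNrl (4 mice). The samples were chosen by genotype and age labels, and they make up 8 of the 31 arrays of the series. The other arrays are +/+ and Rorb-/- retinas without the transgene at the same age, and all 4 genotypes at postnatal day 28 (P28). Each array held total RNA from both retinas of a single mouse, so mice are the replicates. Both groups compared here carry the transgene, and they differ in the Rorb genotype. The labels give neither the sex of the mice, nor the hour of dissection, nor the part of Rorb that is deleted, nor the number of transgenic lines. Because whole retinas were used, fewer cells of a type and less RNA per cell cannot be told apart.

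Rorb is a transcription factor of retinal progenitors and photoreceptor precursors that acts upstream of Nrl in the rod lineage. Nrl is the leucine zipper factor that directs photoreceptor precursors to the rod fate, where it activates rod genes together with Crx and represses cone genes through Nr2e3. The Crx promoter is active in photoreceptors and their precursors, so the transgene is built to express Nrl in those cells. The comparison asks which genes differ without Rorb when both groups carry the Nrl transgene. Outside photoreceptors, Rorb is also known to act in the formation of amacrine and horizontal cells, the inhibitory interneurons of the retina.

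Values are deposited log2 RMA signals, 1 probe set per gene for 18193 genes, and every difference is Rorb-/-;CrxpNrl minus +/+;CrxpNrl on the log2 scale with its standard error (SE), unless stated otherwise. A gene was called at an adjusted p under 0.05 in the limma fit over all arrays (Benjamini-Hochberg over all genes), and "rose" and "fell" are used of such genes only. Among the 8 arrays the median signal lay between 5.85 and 5.89, the lower quartile between 3.98 and 4.04, and the highest signal between 14.1 and 14.3. Values near the lower quartile or near the top of this range are compressed, so differences that reach them are likely to be understated. The correlation of arrays across genes was 0.991 to 0.996 within the groups and 0.972 to 0.983 between them. Some arrays stood apart. Replicate 2 of +/+;CrxpNrl had higher cone gene signals than the other mice of its group, and it alone combined an intermediate Xist signal of 8.03 with a mean Y-linked signal of 7.97. Whether this array holds RNA of another mouse was not tested, so the largest cone differences are given with and without it. Replicate 4 of Rorb-/-;CrxpNrl had high lens crystallin signals, with the summed lens signal of its group ranging from 10.3 to 15.9, and replicate 2 of the same group had the highest interferon-induced signals. By Xist, replicates 1 and 4 of +/+;CrxpNrl and replicate 4 of Rorb-/-;CrxpNrl were female.

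Rorb itself was measured at 11.08, 10.89, 10.23 and 10.47 in the +/+;CrxpNrl mice (replicates 1 to 4) and at 9.31, 9.63, 9.04 and 8.48 in the Rorb-/-;CrxpNrl mice. The groups did not overlap, and the difference was -1.55 (SE 0.19, adjusted p = 2.48e-07). All 3 Rorb probe sets were lower in every Rorb-/-;CrxpNrl mouse. The signal stayed well above the lower quartile of the arrays, and whether these probes lie inside the deleted part is not given, so the level does not measure how much Rorb function was lost.

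Nrl read 13.33, 13.26, 12.89 and 13.35 in the +/+;CrxpNrl mice, near the top of the scale, and 11.90, 11.33, 11.29 and 12.28 in the Rorb-/-;CrxpNrl mice. It therefore fell by 1.51 (SE 0.40, adjusted p = 0.00429) even though both groups carry the transgene. Without the transgene the difference between Rorb-/- and +/+ retinas at the same age was -3.64. The difference of these differences was 2.13 (SE 0.57) with an adjusted p of 0.0534 in limma, which missed the threshold. Whether the probe set detects the transgene's transcript is not given in the sources used here.

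Across all genes, 401 rose and 432 fell by at least 2-fold at an adjusted p under 0.05 in limma, which is 4.58% of those tested (2.2% higher and 2.37% lower). With no minimum fold, 30.1% of genes were called (16.3% higher and 13.8% lower), and in 30.8% the mice of the groups did not overlap. The median difference over all genes was 0.00 (0.0042 before rounding). The counts for each cell type below are to be read against these shares.

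Rod genes were lower without Rorb on the transgenic background. Of 18 rod markers measured, 14 fell and none rose, and in 18 of 18 the mice of the groups did not overlap. Their median difference was -1.52, against 0.00 over all genes. The summed rod signal was 16.8, 16.8, 16.8 and 16.9 in the +/+;CrxpNrl mice and 16.0, 15.5, 15.4 and 15.9 in the Rorb-/-;CrxpNrl mice (replicates 1 to 4 in each). The groups did not overlap, and the Rorb-/-;CrxpNrl mice were more widely spread.

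The largest fall of any gene named here was in Nt5e, which encodes the ecto-5'-nucleotidase CD73, a surface marker of rods and their precursors. It read 10.64, 10.50, 10.58 and 10.57 in the +/+;CrxpNrl mice and 4.17, 4.36, 3.76 and 3.71 in the Rorb-/-;CrxpNrl mice. The latter values lie around the lower quartile of the arrays, so the difference of -6.57 (SE 0.16, adjusted p = 3.48e-22), or 95-fold, is close to the most that this probe set could show. Averaged over its 3 probe sets the difference was -3.23. Kcnj14, an inwardly rectifying potassium channel, read 11.03, 11.22, 11.18 and 11.28 against 7.86, 6.30, 6.85 and 7.58, a difference of -4.03 (SE 0.39, adjusted p = 3.66e-09). Every Rorb-/-;CrxpNrl mouse lay far below every +/+;CrxpNrl mouse for both genes.

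Guca1b encodes the guanylate cyclase activator GCAP2, which restores cyclic GMP after a flash. It read 12.93, 12.84, 12.97 and 13.04 against 10.95, 9.14, 9.29 and 10.40 and fell by 3.0 (SE 0.36, adjusted p = 1.38e-07). Esrrb, an orphan nuclear receptor expressed in rods, fell by 2.26 (SE 0.40), from 10.11, 10.22, 10.51 and 10.41 to 8.58, 7.41, 7.84 and 8.40. Reep6, an endoplasmic reticulum protein that Nrl activates in rods, fell by 2.08 (SE 0.29).

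The phototransduction enzymes and channels of rods fell by smaller amounts. Pde6b, the beta subunit of the rod cyclic GMP phosphodiesterase, read 13.24, 13.23, 13.14 and 13.22 against 12.12, 11.15, 10.39 and 12.10, a difference of -1.76 (SE 0.54, adjusted p = 0.0122). Cnga1, which forms the cyclic nucleotide-gated channel of rods with Cngb1, read 12.06, 11.91, 11.97 and 12.04 against 10.96, 10.54, 10.44 and 10.77, a difference of -1.32 (SE 0.44, adjusted p = 0.0213). The groups did not overlap for either gene. Without replicate 3 of the Rorb-/-;CrxpNrl mice the calls of Pde6b (adjusted p = 0.0654) and Cnga1 (adjusted p = 0.0566) were lost, and that of Cnga1 also without replicate 2 (adjusted p = 0.0503). Pde6a, the alpha subunit of the phosphodiesterase, fell by 1.27 (SE 0.40), and Gnb1, the beta subunit of rod transducin, fell by 1.53. Cngb1, the channel's beta subunit, fell by 1.15 (SE 0.33), and Slc24a1, the rod sodium/calcium-potassium exchanger, fell by 1.53 (SE 0.37). Rdh12, a photoreceptor retinol dehydrogenase, fell by 1.54, and Susd3, a sushi domain protein, fell by 1.27.

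Among the rod markers, 4 were not called. Gnat1, the alpha subunit of rod transducin, read 13.96, 13.88, 13.90 and 13.90 against 13.33, 11.80, 12.36 and 13.28. All of the latter were lower, but they were widely spread, and the difference of -1.22 (95% interval -2.25 to -0.18) had an adjusted p of 0.0707 in limma. The +/+;CrxpNrl values of Gnat1 lie near the top of the scale, so its difference is likely to be understated. Differences for the other three were -0.70 (SE 0.28) for Pde6g, the inhibitory subunit of the phosphodiesterase, -0.42 for Gngt1, the gamma subunit of transducin, and -0.15 for Sag, rod arrestin. Nr2e3 had no probe set assigned to it alone and was not analysed here.

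For several of these rod genes the Rorb difference was smaller with the transgene than without it, and that was tested directly. The test subtracts the difference between Rorb-/- and +/+ from that between Rorb-/-;CrxpNrl and +/+;CrxpNrl, and the pair of comparisons share no mice. Over all genes, 268 (1.47%) differed at an adjusted p under 0.05 in limma, of which 72 (0.396%) were more positive and 196 (1.08%) more negative with the transgene. With a minimum of 2-fold the count was 94 (0.517%, with 0.143% more positive and 0.374% more negative). Of the 18 rod genes, 6 were more positive and 0 more negative, with a median of 1.78 over the list and 0.01 over all genes. These 6 were Pde6b, Cnga1, Slc24a1, Cngb1, Susd3 and Reep6.

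Among these 6 the difference of differences was largest for Pde6b, at 2.99 (SE 0.76, adjusted p = 0.0372). Its Rorb difference without the transgene was -4.75. In Rorb-/- retinas without the transgene Pde6b read 6.95, 6.89, 8.69 and 9.86, below all 4 Rorb-/-;CrxpNrl mice, and those retinas varied widely. The Pde6b call was lost in 14 of 26 other settings, with adjusted p up to 0.11. Cnga1 differed by 2.86 (SE 0.62, adjusted p = 0.0102), from -4.18 without the transgene. It kept its call in all 26 settings. Slc24a1 differed by 2.52 (SE 0.53), Cngb1 by 2.30 (SE 0.47), Susd3 by 1.81 and Reep6 by 1.74, each with the Rorb difference smaller in size under the transgene, and of these Reep6 was called in 21 of 26 settings. Samd11, a sterile alpha motif protein of photoreceptors, was called in this test too, at 2.40, and at 1.58 with the mean of its probe sets. It read 11.58, 11.49, 11.40 and 11.66 against 11.04, 10.94, 10.74 and 11.21, with a difference of -0.55 (SE 0.29, adjusted p = 0.16). Plekha2, a phosphoinositide-binding adaptor, differed by 2.03, from -2.14 without the transgene to -0.11 with it.

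For Gnat1 and Kcnj14 the same test gave 2.66 (adjusted p = 0.0574) and 1.85 (adjusted p = 0.115), which missed the threshold. For Guca1b the Rorb differences were -3.31 without the transgene and -3.0 with it, and the test gave 0.32 (95% interval -0.72 to 1.36). Nt5e had -6.34 and -6.57, but its signal lay around the lower quartile of the arrays without Rorb in both backgrounds, so the test cannot show whether this gene responded to the transgene.

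Promoter windows of 4 of the named genes with the largest called positive differences are shown because these genes moved together. Opn1sw, the short-wavelength cone opsin, is added for comparison. Slc24a1 moved with these genes too and ranked 3 by that difference, ahead of Samd11 and Cngb1. Its window holds none of the motifs marked and is not printed, so the printed windows do not show a motif common to the ranked genes. Sequences are from RefSeq on build GRCm38.p6, from 250 bases before to 50 after the transcription start, 5′ to 3′ on the gene's strand. Capitals mark TAATCC, the core bound by CRX and OTX factors, TGCTGA, a core of the NRL response element, and AGGTCA, a nuclear receptor element of the kind RORB binds, on either strand.
Pde6b promoter, chr5:108388123-108388422, + strand: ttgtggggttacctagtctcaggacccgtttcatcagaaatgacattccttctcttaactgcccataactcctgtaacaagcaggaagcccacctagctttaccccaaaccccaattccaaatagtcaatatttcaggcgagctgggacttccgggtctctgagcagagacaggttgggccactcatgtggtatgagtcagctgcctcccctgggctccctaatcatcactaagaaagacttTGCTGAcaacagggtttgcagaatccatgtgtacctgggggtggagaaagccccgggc
Cnga1 promoter, chr5:72642703-72643002, - strand: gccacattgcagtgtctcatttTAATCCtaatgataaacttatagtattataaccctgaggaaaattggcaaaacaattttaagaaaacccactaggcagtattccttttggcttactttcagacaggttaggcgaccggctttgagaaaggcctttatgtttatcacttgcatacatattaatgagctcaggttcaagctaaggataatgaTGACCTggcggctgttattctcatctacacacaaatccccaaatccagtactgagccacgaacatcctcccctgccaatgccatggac
Cngb1 promoter, chr8:95306536-95306835, - strand: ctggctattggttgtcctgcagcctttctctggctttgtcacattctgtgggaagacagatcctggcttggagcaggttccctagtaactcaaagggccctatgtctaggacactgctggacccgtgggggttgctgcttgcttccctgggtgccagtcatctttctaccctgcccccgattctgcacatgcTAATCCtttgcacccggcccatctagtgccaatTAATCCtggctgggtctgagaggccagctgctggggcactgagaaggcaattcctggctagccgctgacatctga
Samd11 promoter, chr4:156255293-156255592, - strand: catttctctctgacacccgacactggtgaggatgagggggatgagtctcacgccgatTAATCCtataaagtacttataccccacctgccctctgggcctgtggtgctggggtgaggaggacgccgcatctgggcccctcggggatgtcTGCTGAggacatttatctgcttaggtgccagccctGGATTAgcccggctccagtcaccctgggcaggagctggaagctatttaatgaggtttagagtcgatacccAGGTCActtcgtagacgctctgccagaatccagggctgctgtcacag
Opn1sw promoter, chr6:29380464-29380763, - strand: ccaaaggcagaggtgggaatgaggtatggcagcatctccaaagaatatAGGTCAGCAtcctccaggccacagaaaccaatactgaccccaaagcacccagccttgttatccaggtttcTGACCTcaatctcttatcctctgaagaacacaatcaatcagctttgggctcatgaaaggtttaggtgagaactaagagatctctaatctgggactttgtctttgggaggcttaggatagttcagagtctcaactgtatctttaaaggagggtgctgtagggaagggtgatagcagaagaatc
Positions are those of a motif's first base relative to the start, negative before it. The Pde6b window holds a TGCTGA at -8. In Cnga1 a TAATCC lies at -228 and an AGGTCA at -38, and Cngb1 has TAATCC at -58 and -25. Samd11 holds all 3 motifs, with TAATCC at -193 and -67, TGCTGA at -102 and AGGTCA at 4. Opn1sw has AGGTCA at -202 and -132, the former overlapping a TGCTGA at -199. The Slc24a1 and Nt5e windows hold none of these letters, and Plekha2 had no window in the table. Among all 32851 windows of this length, 7.1% hold TAATCC, 19.5% TGCTGA and 16.3% AGGTCA, so single matches are common. Of the rod genes 12 had a window, and 4 of them held TAATCC, 3 TGCTGA and 4 AGGTCA. Of the cone genes 11 had a window, and 3 held TAATCC, 1 TGCTGA and 2 AGGTCA, so TAATCC was not particular to rod genes. Of 18 amacrine windows 1 held TAATCC, 2 TGCTGA and 0 AGGTCA.

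**Figure D1:**
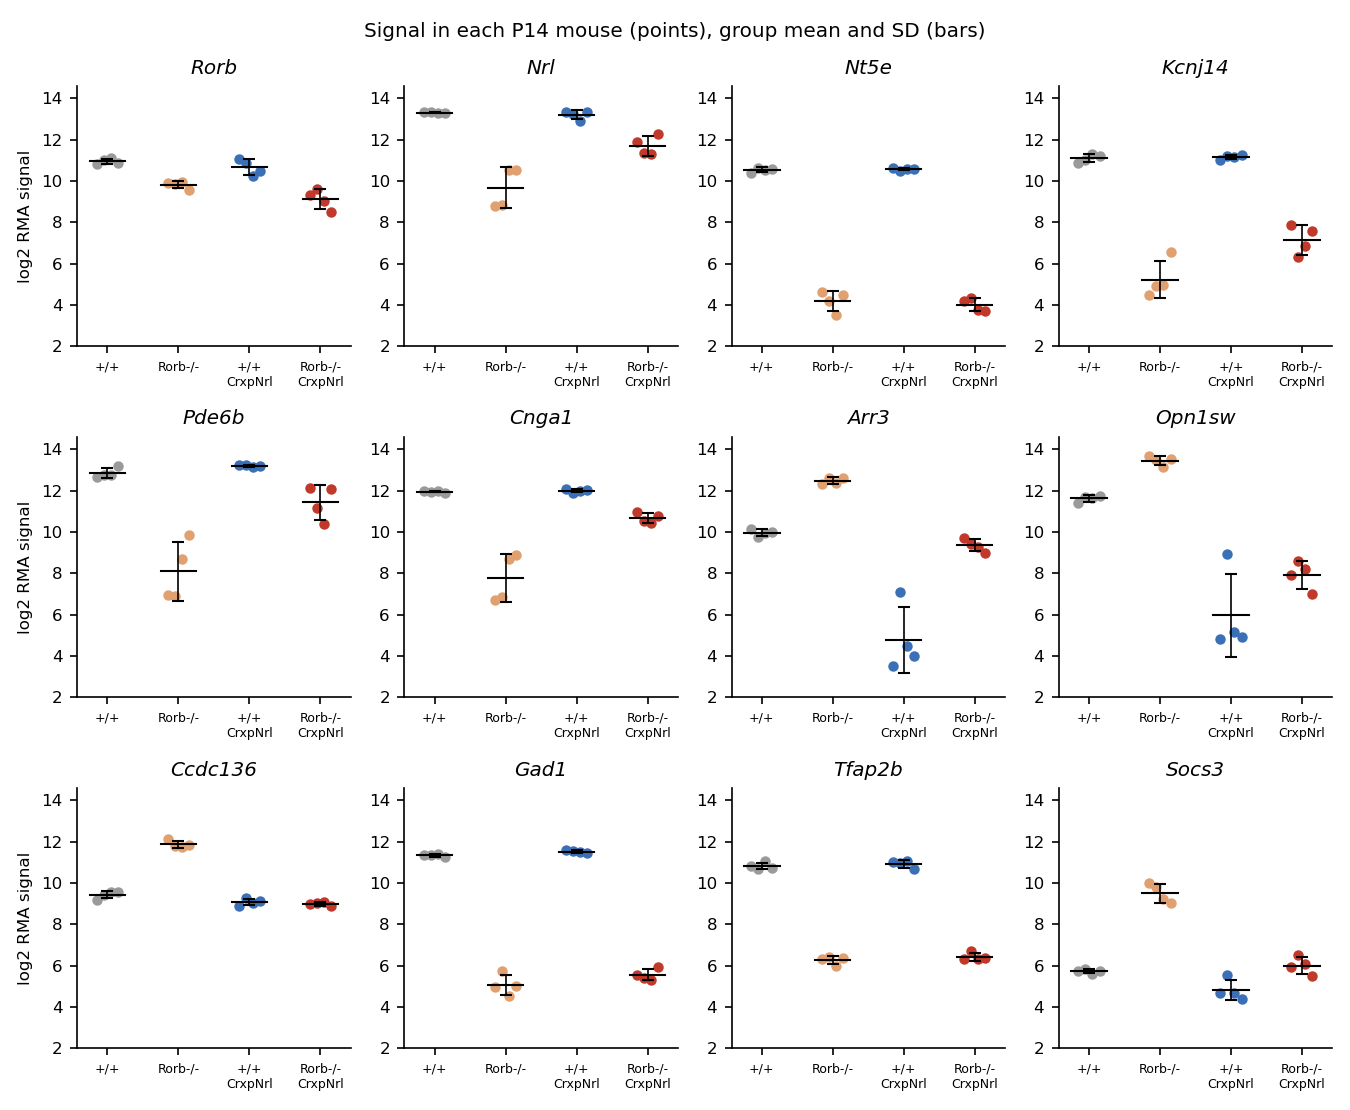
Log2 RMA signal of 12 genes in each mouse at postnatal day 14 (points), in the 4 genotypes along the x axis, with bars for the group mean and SD. Nt5e, Gad1 and Tfap2b are low in both Rorb-/- groups, Pde6b and Cnga1 lie higher in Rorb-/-;CrxpNrl than in Rorb-/- retinas, and Ccdc136 is highest in Rorb-/- retinas.

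Cone genes were higher without Rorb on the transgenic background. Of 17 cone markers measured, 13 rose and 0 fell, with a median difference of 1.43. The summed cone signal was 11.6 to 12.2 in the +/+;CrxpNrl mice and 12.9 to 13.3 in the Rorb-/-;CrxpNrl mice. Both ranges lie below the 13.9 to 14.0 of +/+ retinas without the transgene and the 15.8 to 16.0 of Rorb-/- retinas.

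Arr3, cone arrestin, had the largest rise of all named genes. It read 3.51, 7.08, 4.49 and 4.02 in the +/+;CrxpNrl mice and 9.69, 9.42, 9.30 and 9.0 in the Rorb-/-;CrxpNrl mice, a difference of 4.58 (SE 0.43, adjusted p = 2.05e-09). Otop3, a proton channel, read 5.29, 5.96, 5.31 and 4.83 against 9.73, 9.99, 9.82 and 9.57 and rose by 4.43 (SE 0.31). Replicate 2 of the +/+;CrxpNrl group was the highest of its group for both genes, and without it the differences were 5.34 and 4.64.

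Pde6h, the inhibitory subunit of the cone phosphodiesterase, read 4.82, 8.25, 4.93 and 4.70 against 9.63, 9.52, 9.27 and 8.40 and rose by 3.53 (SE 0.49). Cngb3, the beta subunit of the cone channel, read 6.27, 7.18, 6.38 and 6.41 against 9.70, 9.97, 9.44 and 9.53 and rose by 3.10 (SE 0.22). Without replicate 2 these became 4.38 and 3.31. The catalytic subunit Pde6c rose by 1.66 (SE 0.27), and the gamma subunit of cone transducin, Gngt2, rose by 1.44. Gnat2, the alpha subunit of cone transducin, read 7.30, 8.74, 7.17 and 7.49 against 8.87, 9.41, 9.09 and 8.69, so that replicate 2 overlapped the Rorb-/-;CrxpNrl mice. It rose by 1.34 (SE 0.19), and by 1.69 without that mouse.

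Opn1sw read 4.80, 8.96, 5.18 and 4.94 against 7.91, 8.59, 8.19 and 7.0. Replicate 2 of +/+;CrxpNrl was the highest of all 8 mice, while the other three mice of its group lay below every Rorb-/-;CrxpNrl mouse. The difference was 1.95 (SE 0.56, adjusted p = 0.00785), and 2.95 (SE 0.34, adjusted p = 1.51e-07) without replicate 2. With the mean of its probe sets it was 1.06, since the other probe set moved by 0.17. Fitted on the groups compared alone it missed the threshold (adjusted p = 0.0833). Opn1mw, the medium-wavelength opsin, read 5.04, 6.18, 4.54 and 4.64 against 5.14, 4.95, 3.92 and 4.27, with a difference of -0.53 (95% interval -1.04 to -0.01, adjusted p = 0.126). Several of these signals lie near the lower quartile of the arrays, so a difference in this gene could be understated. Leaving out replicate 2, 13 of the 17 cone genes still rose, with a median of 1.44, so the count did not rest on that mouse.

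Among other cone genes, Clca1, a member of the calcium-activated chloride channel regulator family, rose by 2.45 (SE 0.22, and by 1.31 with the mean of its probe sets), Kcne2, a potassium channel subunit, by 1.07, and Gnb3, the beta subunit of cone transducin, by 0.94 (SE 0.08). Rxrg, a retinoid receptor of cones, rose by 1.43 (SE 0.13), and Sall3, a zinc finger factor of cones and interneurons, rose by 0.38 (SE 0.12). The Sall3 call was lost without replicate 2 of Rorb-/-;CrxpNrl, or replicate 1 or 4 of +/+;CrxpNrl (adjusted p 0.0596 to 0.0632). Not called were Thrb, the thyroid hormone receptor that specifies medium-wavelength cones, at 0.03, and Slc24a2, the cone exchanger, at -0.31.

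In the test of the transgene, 5 cone genes were more negative and 0 more positive, with a median of -0.56. Ccdc136, a coiled-coil protein, stood out. It read 8.91, 9.27, 9.04 and 9.14 in the +/+;CrxpNrl mice and 9.0, 9.05, 9.09 and 8.87 in the Rorb-/-;CrxpNrl mice, which overlapped completely, with a difference of -0.09 (95% interval -0.28 to 0.10). Without the transgene it read 9.19 to 9.58 in +/+ and 11.75 to 12.13 in Rorb-/- retinas, so the difference of differences was -2.52 (SE 0.13, adjusted p = 2.97e-13). Clca1 differed by -1.92, from 4.37 without the transgene, and by -1.01 with the mean of its probe sets. Sall3 differed by -1.19, Gnb3 by -0.89 and Rxrg by -0.76, the latter in only 16 of 26 other settings. By contrast the Cngb3 differences were 3.11 and 3.10, and their difference had a 95% interval of -0.66 to 0.64. For Arr3 the difference was 2.51 without the transgene and 4.58 with it, and the test missed the threshold (2.06, adjusted p = 0.107). Replicate 2 of +/+;CrxpNrl is included in these values and in the counts of this test. Without it the Arr3 difference with the transgene was 5.34 (SE 0.27). Leaving out single mice, the Arr3 test gave 1.64 to 2.83, so the missed threshold does not show that Arr3 was unaffected by the transgene.

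**Figure D2:**
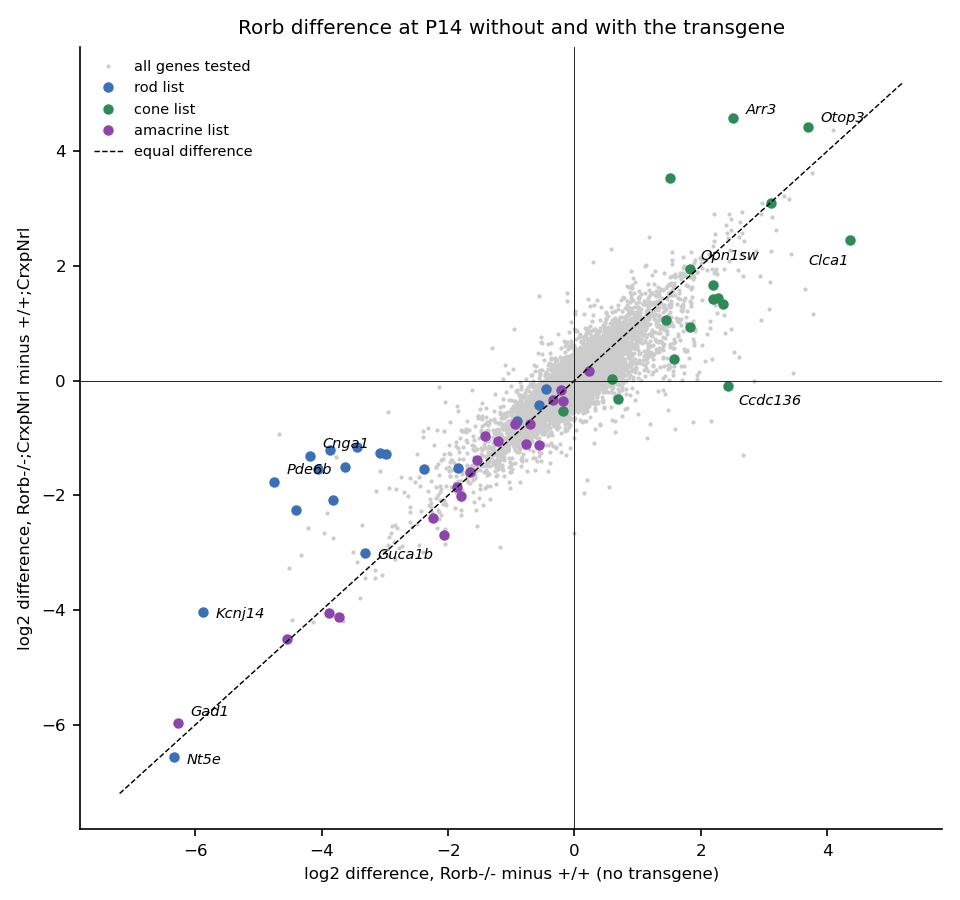
Log2 difference without Rorb at P14 without the transgene (x axis) and with it (y axis) for all genes tested (grey) and for the rod, cone and amacrine lists (coloured), with a dashed line of equal differences. Of 18 rod genes 17 lie above the diagonal, 6 of them with a called difference, such as Cnga1 (-4.18 and -1.32). Guca1b lies close to the line, and Ccdc136 (2.44 and -0.09) lies far below it. Nt5e lies around the lower quartile of the arrays without Rorb, so its place on the diagonal is set by the scale.

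Structural genes of the outer segment were lower or not called. Of 18 measured, 10 fell and 0 rose, with a median of -0.91. Fscn2, an actin-bundling protein of photoreceptors, read 9.16, 9.13, 8.94 and 9.15 against 6.17, 5.22, 5.47 and 5.99 and fell by 3.38 (SE 0.22), with no overlap. Nxnl1, which encodes rod-derived cone viability factor, fell by 1.88 (SE 0.30), Abca4, the retinoid flippase of the disc rims, by 1.59 (SE 0.25), and Rom1, a tetraspanin of the rims, by 1.11. Crb1, a polarity protein of the outer limiting membrane, fell by 1.77 (SE 0.53), and its call was lost with the mean of its probe sets (-0.93, adjusted p = 0.105) and without replicate 2 of Rorb-/-;CrxpNrl (adjusted p = 0.0852). Without that mouse 6 of the 18 genes fell.

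Prph2, the peripherin partner of Rom1, varied widely without Rorb. It read 6.46, 6.66, 6.75 and 6.55 in the +/+;CrxpNrl mice and 7.76, 5.12, 5.34 and 4.47 in the Rorb-/-;CrxpNrl mice, with replicate 1 above and the others below all controls. Its difference was -0.93 (95% interval -3.56 to 1.71), which was not called. Without the transgene it was -4.67, and the test of the transgene gave 3.74, the most positive value of all genes tested. At P28 Prph2 fell by 5.94, and the ages differed by -5.01, the most negative value of all genes tested. Neither of these tests called Prph2, whose values varied widely between mice. Guca1a, which encodes the activator GCAP1, changed sign with the transgene. It read 12.02, 11.77, 12.20 and 12.42 against 11.85, 10.91, 10.82 and 10.83, a fall of 1.0 (SE 0.28, adjusted p = 0.00694). Without the transgene it rose by 1.15 (SE 0.28, adjusted p = 0.00215), and the difference of these was -2.15 (adjusted p = 0.0021).

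Of 15 photoreceptor transcription factors, 3 rose and 6 fell, with a median of -0.31. Mef2c, a MADS box factor that acts with Nrl and Crx at rod genes, read 8.62, 8.72, 7.89 and 8.54 against 6.56, 6.41, 6.01 and 5.47 and fell by 2.33 (SE 0.33). All 5 of its probe sets were lower with no overlap. Otx2, which sets the photoreceptor fate upstream of Crx, rose by 0.38 (SE 0.09), and Rora, the paralogue of Rorb, fell by 0.36 (SE 0.09). Crx had a difference of -0.31 (95% interval -0.65 to 0.02) and was not called. Rorb, Nrl, Esrrb, Rxrg, Sall3 and Onecut1 were the other called members.

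Genes of the ribbon synapse, by which photoreceptors signal to bipolar and horizontal cells, were lower. Of 18 measured, 14 fell and 0 rose, with a median of -0.51. Rims1, an active zone scaffold, read 10.34, 10.51, 10.48 and 10.21 against 7.67, 7.95, 7.92 and 7.98, with a fall of 2.5 (SE 0.12) and no overlap. Cabp4, the calcium-binding regulator of the photoreceptor calcium channel, fell by 1.43 (SE 0.28), Lrit2, a leucine-rich repeat protein of photoreceptors, by 1.22 (SE 0.19), and Cacna1f, the pore subunit of that channel, by 0.64.

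Inhibitory interneuron genes were lower without Rorb. Of 20 amacrine markers, 17 fell and 0 rose, with a median of -1.25, and of 7 horizontal cell markers 6 fell and 0 rose, with a median of -1.02. The summed amacrine signal was 14.0 in every +/+;CrxpNrl mouse after rounding and 12.3 to 12.6 in the Rorb-/-;CrxpNrl mice. No amacrine or horizontal gene was called in the test of the transgene, where the amacrine median was -0.03.

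Gad1, which makes the transmitter GABA, read 11.61, 11.53, 11.51 and 11.43 against 5.56, 5.42, 5.31 and 5.94. The difference was -5.96 (SE 0.29, adjusted p = 2.78e-15), or 62.4-fold, next to -6.27 without the transgene. Both of its probe sets were lower with no overlap. Gad2, the other GABA-synthesising enzyme, read 8.11, 7.91, 7.90 and 7.86 against 8.11, 8.25, 8.06 and 8.05, and was not called (0.17, 95% interval -0.02 to 0.37). The groups overlapped for Gad2 and lay far apart for Gad1.

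The AP-2 factors of amacrine and horizontal cells fell together. Tfap2b read 11.01, 10.95, 11.07 and 10.67 against 6.31, 6.71, 6.32 and 6.38, a fall of 4.50 (SE 0.14). Tfap2a fell by 4.06 (SE 0.13), from 8.76, 8.75, 8.86 and 8.50 to 4.51, 4.67, 4.61 and 4.86. Tfap2c fell by 4.12 (SE 0.13) to values around the lower quartile of the arrays, and by 2.37 without probe sets that can match several transcripts. No mouse of one group reached the range of the other for any of them.

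Transmitter genes of amacrine subtypes fell to different degrees. Slc32a1, the vesicular transporter of GABA and glycine, fell by 1.85 (SE 0.13), and by 0.52 with the mean of its probe sets. Slc6a9, the glycine transporter, fell by 1.59, Slc18a3, the vesicular acetylcholine transporter of starburst amacrine cells, by 2.39 (SE 0.15), and Th, which makes dopamine, by 1.12. Vip, vasoactive intestinal peptide, read 8.76, 8.65, 8.63 and 8.33 against 6.78, 5.17, 5.45 and 6.19 and fell by 2.70 (SE 0.31). Meis2, a homeobox factor, fell by 2.01. Npy, a neuropeptide, at -0.33, and Ptf1a, which specifies inhibitory neurons in development, at -0.16, were not called.

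Among horizontal cell genes, Lhx1, a homeobox factor that positions these cells, fell by 2.26 (SE 0.17). Calb1, the calcium buffer calbindin, read 10.42, 10.40, 10.24 and 10.23 against 8.26, 7.38, 7.62 and 7.93 and fell by 2.52 (SE 0.15), and by 1.64 with the mean of its probe sets. Onecut1, which specifies the type, fell by 0.77 (SE 0.25), a call lost without replicate 4 of Rorb-/-;CrxpNrl (adjusted p = 0.0638) or replicate 1 of +/+;CrxpNrl (adjusted p = 0.0707). Prox1, a factor shared with other interneurons, was not called (0.31).

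Bipolar cells, the excitatory interneurons, differed less and mostly upward. Of 17 markers, 7 rose and 1 fell, with a median of 0.31. Lhx3, a homeobox factor, rose by 1.09 (SE 0.11), its paralogue Lhx4 by 1.07 (SE 0.11), Vsx1, a factor of cone bipolar cells, by 0.84 (SE 0.13), and Scgn, the calcium-binding protein secretagogin, by 0.70 (SE 0.09). Gng13, a G protein gamma subunit of ON bipolar cells, fell by 1.08 (SE 0.14), and by 0.51 with the mean of its probe sets. Prkca, the marker of rod bipolar cells, was not called (0.05). Cabp5, a calcium-binding protein of bipolar cells, read 10.51, 10.58, 10.19 and 10.47 against 10.43, 10.08, 10.28 and 10.04 and was not called (-0.23), while it rose by 1.43 without the transgene. The difference of these was -1.66 (adjusted p = 4.25e-07). Among 15 ganglion cell genes, 1 rose and 6 fell, with a median of -0.38. Nefh, the heavy neurofilament, fell by 1.07 (SE 0.19) and Thy1, a surface glycoprotein, by 1.02 (SE 0.22), while Isl2, a homeobox factor, rose by 0.51 (SE 0.08).

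**Figure D3:**
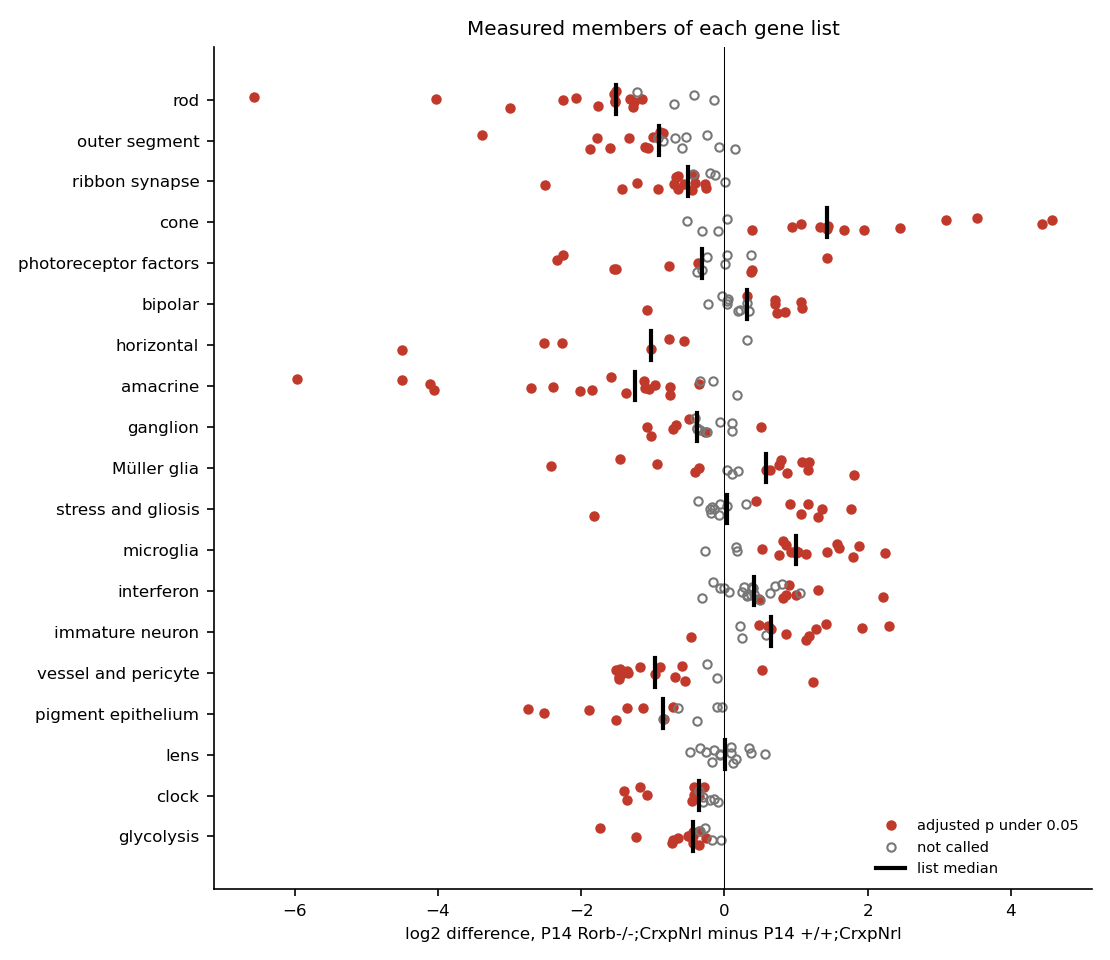
Log2 difference of each measured member of the gene lists at P14, Rorb-/-;CrxpNrl minus +/+;CrxpNrl, with filled points for members at an adjusted p under 0.05 and a mark for each list's median. Rod, amacrine and horizontal lists lie to the left of 0 (medians -1.52, -1.25 and -1.02), and cone and microglia lists to the right (1.43 and 1.0).

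Müller glia, the support cells that span the retina, changed in both directions. Of 17 markers, 9 rose and 5 fell, with a median of 0.57. Apoe, the lipid carrier, read 11.60, 11.70, 11.70 and 11.67 against 13.48, 13.39, 13.57 and 13.47 and rose by 1.81 (SE 0.07, adjusted p = 3.34e-18), with no overlap. Slc1a3, the glial glutamate transporter, rose by 1.18, Mlc1, a membrane protein of glial end feet, by 1.17, and Hes1, a Notch effector, by 1.09. The carbonic anhydrases went the other way. Car14 read 9.81, 9.74, 9.89 and 9.81 against 8.47, 6.24, 6.95 and 7.92 and fell by 2.42 (SE 0.26), and Car2 fell by 1.46. Aqp4, the water channel, fell by 0.94.

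Of 17 genes of glial stress, 7 rose and 1 fell, and the median of 0.03 was near that over all genes. The summed signal of the list was 11.0 to 11.1 in the +/+;CrxpNrl mice and 11.9 to 12.1 in the Rorb-/-;CrxpNrl mice, with no overlap. Part of the list was thus higher, while its median member was not. Ednrb, the endothelin receptor of reactive glia, rose by 1.77 (SE 0.22), Cp, the copper oxidase ceruloplasmin, by 1.36 (SE 0.09), Cebpd, an acute phase factor, by 1.30 (SE 0.16, and by 0.77 with the mean of its probe sets), and Gfap, the glial intermediate filament, by 0.91 (SE 0.23). Osmr, the oncostatin M receptor, fell by 1.81 (SE 0.22), and by 0.78 with the mean of its probe sets. Socs3, a feedback inhibitor of cytokine signalling, read 4.68, 5.55, 4.69 and 4.40 against 5.92, 6.50, 6.09 and 5.48. It rose by 1.17 (SE 0.24, adjusted p = 0.000403) where it had risen by 3.78 without the transgene, and the difference of these was -2.61. Its call was lost without probe sets that can match several transcripts (0.30, adjusted p = 0.143), and with the mean of its probe sets the rise was 0.70.

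Microglia and macrophage genes were higher. Of 18 measured, 15 rose and 0 fell, with a median of 1.0. Lyz2, the lysozyme of macrophages, read 5.60, 5.32, 5.5 and 5.63 against 7.25, 8.17, 7.64 and 7.94 and rose by 2.24 (SE 0.22). The complement component C1qc rose by 1.88 (SE 0.16), from 6.03, 5.78, 5.69 and 5.64 to 6.98, 7.96, 7.95 and 7.76, and the signalling adaptor Tyrobp rose by 1.79 (SE 0.14). The lysosomal protein Cd68 rose by 1.44. P2ry12 (0.16) and Tmem119 (-0.26), markers of resting microglia, and Itgam were not called, while the microglial receptors Cx3cr1 and Csf1r rose. Tyrobp was the only gene of the list called in the test of the transgene, at 0.87 (adjusted p = 0.0197), and in 21 of 26 other settings.

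Of 25 interferon-induced genes, 7 rose and 0 fell, with a median of 0.42. Without the transgene 21 of the 25 rose at P14, with a median of 1.21 (16% of all genes rose). In the test of the transgene all 25 values were negative, with a median of -0.73, but none was called. With only the groups compared in the fit, 11 rose. Oasl2, an antiviral protein, read 5.80, 5.65, 5.73 and 5.39 against 7.31, 9.02, 7.72 and 7.35 and rose by 2.21 (SE 0.38), with the highest value in replicate 2. Psmb8, an immunoproteasome subunit, rose by 1.01 (0.64 with the mean of its probe sets), and Xaf1, a proapoptotic protein, by 1.31 (SE 0.28), but the latter was not called with the mean of its probe sets (0.12). Usp18, which limits interferon signalling, read 3.81, 3.99, 4.14 and 3.57 against 4.02, 6.68, 4.61 and 4.40. The groups overlapped, replicate 2 was far above the rest, and the difference of 1.05 (SE 0.61) was not called.

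Genes of immature neurons were higher without Rorb. Of 15, 11 rose and 1 fell, with a median of 0.66. Sox11, a factor of newborn neurons, read 7.68, 7.25, 6.94 and 6.53 against 9.18, 10.11, 9.06 and 9.25 and rose by 2.30 (SE 0.48, adjusted p = 0.000368). All 6 of its probe sets were higher with no overlap. Cd24a, a surface glycoprotein of differentiating neurons, read 8.25, 8.47, 8.65 and 8.37 against 9.43, 10.58, 10.28 and 11.15 and rose by 1.92 (SE 0.46). Sox4, the close relative of Sox11, rose by 1.41 (SE 0.14), Dcx, the microtubule protein doublecortin, by 1.28 (SE 0.18, and by 0.84 with the mean of its probe sets), Gap43, a growth cone protein, by 1.18, and Marcksl1, an actin regulator, by 1.14. Elavl3, a neuronal RNA-binding protein, fell by 0.46. The Sox11 difference without the transgene was 0.58 and was not called (adjusted p = 0.406), but the test of the transgene did not call Sox11 or any other gene of this list.

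Vessel genes were mostly lower. Of 17, 13 fell and 2 rose, with a median of -0.97. Rgs5, a pericyte marker, read 10.80, 10.86, 10.94 and 10.56 against 9.23, 9.17, 9.55 and 9.11 and fell by 1.52 (SE 0.14). The endothelial genes Cldn5, a tight junction protein, Vwf, von Willebrand factor, and Tek, the angiopoietin receptor, fell by 1.48, 1.47 and 1.45. Kdr, a receptor for vascular endothelial growth factor, rose by 1.23 (SE 0.12). The rise of Flt1, another such receptor, by 0.53 (SE 0.12) turned to -0.08 with the mean of its probe sets.

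Markers of the pigment epithelium, a layer that lies next to the neural retina and can be carried along in dissection, were lower. Of 13, 8 fell and 0 rose, with a median of -0.86, and the summed signal of the list was 11.9 to 12.7 in the +/+;CrxpNrl mice and 10.4 to 11.4 in the Rorb-/-;CrxpNrl mice. Rpe65, the retinoid isomerase, read 6.54, 7.48, 8.64 and 7.48 against 5.38, 4.98, 4.76 and 4.96 and fell by 2.51 (SE 0.44). Rgr, a retinal-binding opsin, read 7.91, 8.71, 9.13 and 8.38 against 6.77, 5.89, 5.25 and 5.25 and fell by 2.74 (SE 0.52). The fall of Dct, a pigment enzyme, by 1.14 (SE 0.36) was not called without replicate 2 of Rorb-/-;CrxpNrl (adjusted p = 0.0778) or replicate 3 of +/+;CrxpNrl (adjusted p = 0.069). Mlana, a melanosome protein, lay closer to the lower quartile of the arrays, at 4.41 to 5.31 against 4.16 to 5.04, and was not called. The part of carried-over tissue in these values was not tested. Of 14 lens genes, 0 rose and 0 fell, with a median of 0.02.

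The retinoid cycle list, which shares its epithelial members with the list above, had 8 of 12 genes fall and 1 rise, with a median of -1.04. Among its other members Dhrs3, a retinal reductase of cones, fell by 0.71 (SE 0.11), less than the 1.70 without the transgene (difference 1.0, adjusted p = 0.000178). Rdh10, a retinol dehydrogenase, rose by 0.85 (SE 0.11).

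Of 17 genes of glycolysis and lactate transport, 13 fell and 0 rose, with a median of -0.43. Hk2, the hexokinase of photoreceptors, read 9.58, 9.98, 10.37 and 10.18 against 8.72, 7.94, 7.92 and 8.60 and fell by 1.73 (SE 0.32, adjusted p = 0.000103). Without the transgene its difference was 0.20, and the difference of these, -1.94 (adjusted p = 0.02), was called in 21 of 26 other settings. Slc16a1, a monocarboxylate transporter, fell by 1.24 (SE 0.12), and Aldoa, aldolase, by 0.65 (SE 0.06).

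Of 15 clock genes, 9 fell and 0 rose, with a median of -0.36. The largest falls were in Nr1d1, the repressor REV-ERB alpha, by 1.41 (SE 0.22), Dbp, a clock output factor, by 1.36 (SE 0.17), Ciart, a repressor, by 1.18, and Bhlhe40, a helix-loop-helix repressor, by 1.09. Dbp read 11.15, 11.02, 10.86 and 11.05 against 9.96, 9.31, 9.67 and 9.72, with no overlap. The hour of dissection is not given, so time of day and genotype cannot be told apart for these genes. Of 11 cell cycle genes 3 rose and 0 fell, with a median of 0.18, and of 11 apoptosis genes 3 rose and 1 fell, with a median of 0.16.

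Outside the lists, the largest falls included C1ql2, a complement-like synaptic protein, by 4.21 (SE 0.15), Tac2, the neurokinin B precursor, by 4.19 (SE 0.14), Plpp2, a lipid phosphatase, by 4.17 (SE 0.19) and by 2.00 with the mean of its probe sets, and Lamp5, a membrane protein of inhibitory neurons, by 3.44 (SE 0.15). C1ql2 read 8.95, 9.07, 8.99 and 9.19 against 5.27, 4.94, 4.43 and 4.72. Pdzph1, a PDZ domain protein, fell by 3.79 (SE 0.53), Sh2d1a, a signalling adaptor, by 3.44 (SE 0.20), Tnfaip3, an inhibitor of NF-kappa B signalling, by 3.29 (SE 0.15), and Qrfpr, a neuropeptide receptor, by 3.17 (SE 0.15). Tac2, Sh2d1a and Qrfpr reached or went below the lower quartile of the arrays without Rorb.

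The largest rises outside the cone list included Myocd, a coactivator of smooth muscle genes, at 4.10, 4.23, 4.34 and 4.22 against 7.88, 8.56, 7.82 and 7.14, a rise of 3.63 (SE 0.26). Zic5, a zinc finger factor of neural progenitors, rose by 3.21 (SE 0.21), Cxcr4, a chemokine receptor, by 3.17 (SE 0.16), Cckbr, a cholecystokinin receptor, by 3.09 (SE 0.24), and Txnip, the thioredoxin-interacting protein that limits glucose uptake, by 2.95 (SE 0.18). Txnip read 7.18, 7.46, 7.67 and 7.53 against 10.47, 10.73, 10.71 and 9.73. Irs4, an insulin receptor substrate, rose by 2.91 (SE 0.20), and by 1.59 with the mean of its probe sets. Gpc3, a glypican, rose by 2.90 (SE 0.18), Sst, the peptide somatostatin, by 2.85 (SE 0.22), Bmper, a regulator of bone morphogenetic proteins, by 2.82 (SE 0.24), and Apoc1, an apolipoprotein, by 2.77 (SE 0.16). Sst read 6.21, 5.80, 6.31 and 5.51 against 9.08, 8.86, 8.44 and 8.86. Lyz1, a lysozyme near-identical to Lyz2, rose by 2.91 (SE 0.25), but its probe set can match several transcripts, and without such probe sets the difference was -0.08, and it was 1.94 with the mean of its probe sets.

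Set beside the same comparison in mice without the transgene, which called 29.9% of genes, 952 (5.23%) of them at 2-fold or more (2.67% higher, 2.57% lower), the overlap was broad. Of the 833 genes called with the transgene, 628 were called in the same direction without it, which is 75.4% of the former and 66.0% of the latter. Guca1a alone was called in opposite directions. Genes whose Rorb difference was most negative with the transgene relative to that without it included Slco1a5, an organic anion transporter, with 3.45 without and 0.14 with the transgene (difference -3.32, and -1.84 with the mean of its probe sets). Mapk4, an atypical kinase, had 2.84 and 0.00 (difference -2.84), and Gulo, the enzyme of vitamin C synthesis, had 1.59 and -0.84 (difference -2.43).

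At P28 the same genotypes were compared in other mice, 4 Rorb-/-;CrxpNrl against 3 +/+;CrxpNrl. That comparison called 36.6% of genes, 1329 (7.31%) of them at 2-fold or more (4.56% higher and 2.75% lower). Of these, 561 had been called in the same direction at P14, or 67.3% of the genes called at P14 and 42.2% of those at P28, and 4 were called in opposite directions (Col8a1, Dct, Dio2 and Osmr). A test of the difference between the ages called 2280 genes (12.5%), of which 1561 (8.58%) were more positive at P28 and 719 (3.95%) more negative. At 2-fold or more it called 437 (2.4%, with 1.93% more positive and 0.473% more negative).

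Rod genes stayed lower at the later age, where 17 of 18 fell with a median of -2.48 (15.9% of all genes fell). The difference between the ages was called for 1 rod gene, while 15 of 18 were more negative at P28 (median -0.89). The summed rod signal of the P28 Rorb-/-;CrxpNrl mice ranged from 14.1 to 16.1, and this spread limits such calls. In the outer segment list 18 of 18 fell at P28, with a median of -2.01. Rorb itself was at -2.71 at P28, a difference of -1.16 from P14 (adjusted p = 0.00655). Nt5e was at -6.70, Gad1 at -4.90, and Nrl at -2.40. Fscn2 was at -4.72, which was more negative than at P14 by 1.34. For cones 13 of 17 genes rose and 1 fell at P28, with a median of 1.54 (20.7% of all genes rose), and Arr3 was at 4.32. Otop3 was at 2.82, less than at P14 by 1.61 (adjusted p = 0.0188), which was called in 22 of 25 other settings.

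At P28, 12 of 20 amacrine genes fell and 3 rose, with a median of -0.70. Of the 7 horizontal genes 6 fell and 0 rose, and of all genes 15.9% fell and 20.7% rose. Some amacrine and horizontal genes differed less than at P14. Vip was at -0.26, and its difference between ages was 2.43. Calb1 was at -0.89, with a difference of 1.63, and of 0.89 with the mean of its probe sets. Of the 20 amacrine genes, 7 were more positive at P28 and 0 more negative, with a median of 0.53 against -0.01 over all genes. Among the immature neuron genes Dcx was not called at P28, and its difference between the ages was -1.28.

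Interferon-induced genes were higher without Rorb at P28 than at P14. At P28, 23 of 25 rose (20.7% of all genes rose) with a median of 1.99, and 17 of 25 were more positive than at P14, with a median difference of 1.37. Ifit1, an antiviral RNA-binding protein, read 3.87, 4.18 and 4.23 in the P28 +/+;CrxpNrl mice and 7.98, 8.46, 8.98 and 8.83 in the P28 Rorb-/-;CrxpNrl mice. Its difference was 4.47 at P28 and 0.50 (not called) at P14, and these differed by 3.97. Usp18 differed between the ages by 3.41, and Rtp4, a receptor chaperone, by 3.50 (2.02 with the mean of its probe sets). B2m, the light chain of class I molecules, which rose by 1.07 at P14, was more positive at P28 by 2.48.

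The pigment epithelium list changed direction with age. At P28, 5 of 13 genes rose and 1 fell, with a median of 0.91, and 10 of 13 were more positive than at P14, with a median difference of 2.51. Rgr was at 0.01 at P28, a difference of 2.75 that was not called without replicate 1 of the P28 +/+;CrxpNrl mice (adjusted p = 0.0538), and Rpe65 differed by 2.66. Dct rose by 2.31 at P28 and differed by 3.45, and Ttr, the thyroid hormone and retinol carrier transthyretin, differed by 3.04. The summed signal of the list at P28 was 10.7 to 11.3 in the +/+;CrxpNrl and 11.5 to 13.0 in the Rorb-/-;CrxpNrl mice. The part of carried-over epithelium in these values was not tested.

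Other named genes with the largest called age differences included Myocd, less positive at P28 by 2.89. Osmr rose by 1.12 at P28 (difference 2.94, and 1.38 with the mean of its probe sets). Tecta, an extracellular matrix protein, Samd7, a photoreceptor repressor, and Insm1, a neuroendocrine zinc finger factor, differed by -2.25, -2.17 and -2.13. Tecta, Samd7 and Insm1 were not called at P14. Lyz2 differed by -1.69. The clock genes Nr1d1 and Dbp were more positive at P28 by 1.5 and 1.65. Differences for Pdxdc1, a decarboxylase-like protein (3.56), and Pex5l, a trafficking subunit of HCN channels (-2.38), were called in 11 and 20 of 25 other settings, and were -0.05 and -1.11 with the mean of their probe sets.

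**Figure D4:**
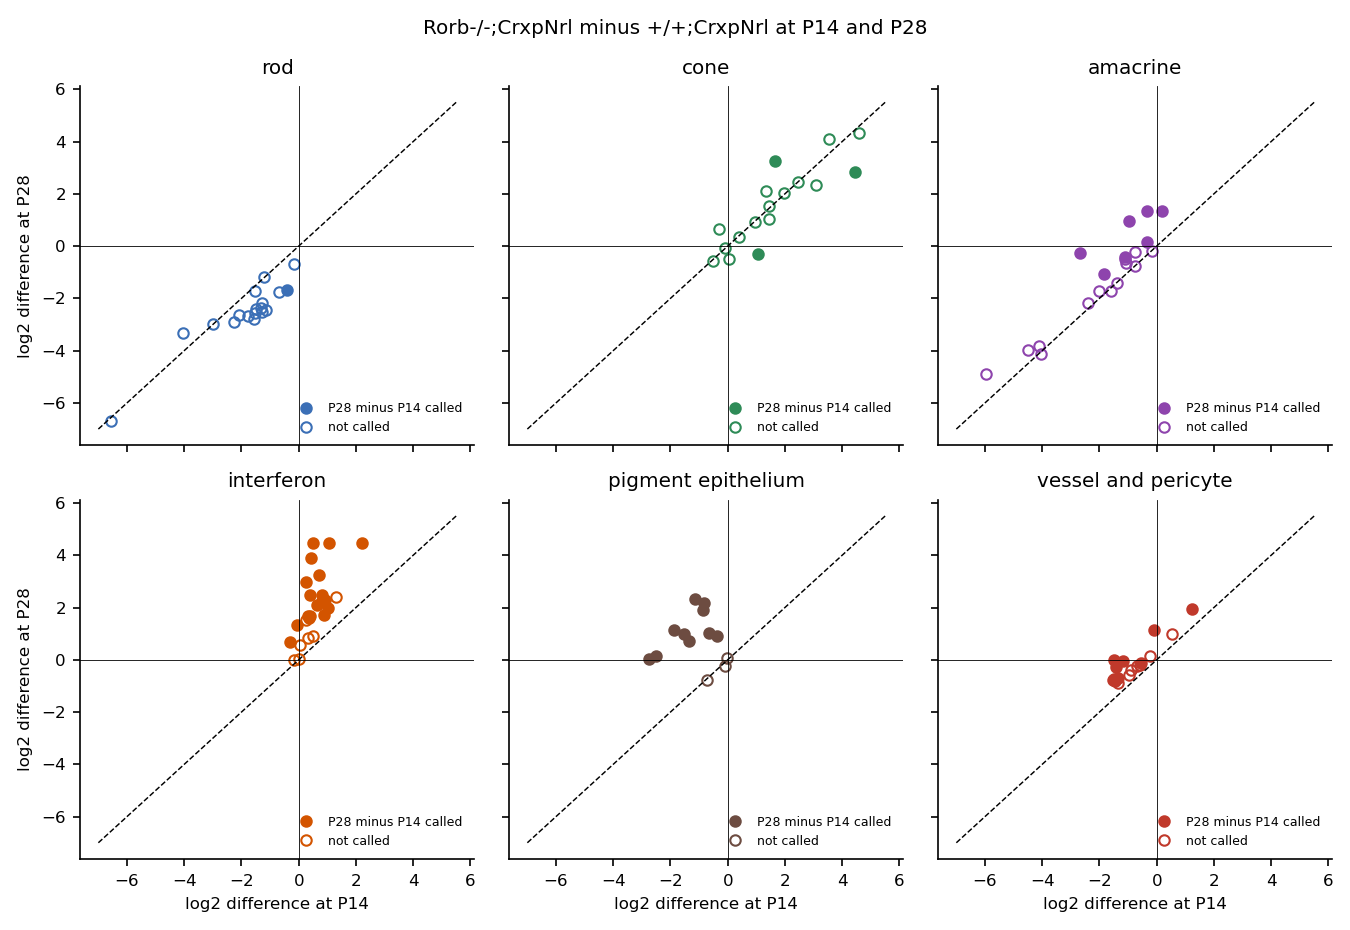
Log2 difference of Rorb-/-;CrxpNrl minus +/+;CrxpNrl at P14 (x axis) and P28 (y axis) for members of 6 gene lists, 1 panel each, with filled points where the ages differed at an adjusted p under 0.05 and a dashed line of equal differences. Interferon-induced genes (17 of 25) and pigment epithelium genes (10 of 13) lie above the line with a called difference. Of 18 rod genes 15 lie below the line, 1 of them with a called difference.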

How the data were processed

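The series measured total RNA of mouse retinas on Affymetrix 3' arrays, and the deposited table holds log2 signals made with RMA, per the submitters' processing notes (no version is given there). RMA normalizes all arrays to 1 distribution, so the values are relative to the total signal of an array. Of 45101 probe sets, 34945 that carry a single gene symbol in the platform annotation and are no controls were used, and for a gene with several probe sets the brightest by its mean signal was kept (18193 genes). Group means of all 31 arrays were fitted with limma 3.58.1 in R 4.3.3 (lmFit, eBayes with a trend), with Benjamini-Hochberg adjustment over all genes. The number of mice limits the precision, and no read depth applies to arrays. Figures were drawn with matplotlib 3.10.9. The steps were tested on simulated data.

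Named genes were Rorb, Nrl, the 15 largest non-overlapping differences each way, the 6 largest each way in the tests of the transgene and of age, and members of the gene lists. The members and lists were chosen with earlier results of these data known. Col8a1 and Dio2 were named because they complete a count of opposite calls, after their values were seen. Alternatives were other scalings, other choices of probe sets, a filter on dim genes, no trend, array weights, a sex covariate, a replicate block, only the groups compared, and leaving out each mouse. The main fit did not pair mice by replicate number. The correlation of same-numbered deviations was 0.05, 0.26, 0.16 and 0.27 for replicates 1 to 4, and replicates 2, 3 and 4 each matched their own number best. What the numbers share was not tested. A fit with a replicate block called 832 genes, 831 of them also called in the main fit.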

Additional observations from a re-analysis of the deposited data

Results flagged for a closer look

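Single mice lay far from the other three of their group in 13 of 316 groups of values examined over 158 named genes, and chance gives this in about 1 in 20 groups. Cone genes accounted for 4 of these in replicate 2 of +/+;CrxpNrl. There Pde6h read 8.25 (the others 4.70 to 4.93), Cngb3 7.18 (6.27 to 6.41), Opn1sw 8.96 (4.80 to 5.18) and Pde6c 7.20 (5.9 to 6.02). In the same group Fscn2 read 8.94 and Sh2d1a 5.75 in replicate 3, and Gng13 read 9.93 in replicate 4, all below the others. Among Rorb-/-;CrxpNrl mice, replicate 1 was high for Guca1a at 11.85 (the others 10.82 to 10.91) and for Cdhr1, a cadherin of the outer segment base, at 12.99. Replicate 2 was high for Tfap2b at 6.71 and low for the clock genes Nr1d1 at 6.03 (7.02 to 7.16) and Ciart at 5.22. Replicate 4 was low for Kcne2 at 8.41.

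The Rorb difference depended on the transgene, by the limma test of that difference, for 23 named genes. It was more positive with the transgene for Pde6b at 2.99, Cnga1 at 2.86, Slc24a1 at 2.52, Samd11 at 2.40, Cngb1 at 2.30, Plekha2 at 2.03, Susd3 at 1.81, Reep6 at 1.74, Dhrs3 at 1.0 and Tyrobp at 0.87. It was more negative for Slco1a5 at -3.32, Mapk4 at -2.84, Socs3 at -2.61, Ccdc136 at -2.52, Gulo at -2.43, Guca1a at -2.15, Hk2 at -1.94, Clca1 at -1.92, Cabp5 at -1.66, Sall3 at -1.19, Gnb3 at -0.89, Rxrg at -0.76 and Slc16a1 at -0.68.

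It depended on age for 25 named genes. The P28 difference was more positive for Ifit1 at 3.97, Pdxdc1 at 3.56, Rtp4 at 3.50, Dct at 3.45, Usp18 at 3.41, Ttr at 3.04, Osmr at 2.94, Rgr at 2.75, Rpe65 at 2.66, B2m at 2.48, Vip at 2.43, Dbp at 1.65, Calb1 at 1.63 and Nr1d1 at 1.5. It was more negative for Myocd at -2.89, Pex5l at -2.38, Lyz1 at -2.26, Tecta at -2.25, Samd7 at -2.17, Insm1 at -2.13, Lyz2 at -1.69, Otop3 at -1.61, Fscn2 at -1.34, Dcx at -1.28 and Rorb at -1.16.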

How the results depend on the processing

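The main count of 833 genes lay between 647 and 854 under the other scalings, probe set choices, filter, weights, covariates and sample sets, and 634 of the 660 genes called with the mean of all probe sets were called in the original setting. With no minimum fold it was 5471 (2960 higher, 2511 lower), against 268 (72 and 196) for the test of the transgene and 2280 (1561 and 719) for the test of age. Leaving out single mice gave 776 to 914 genes (386 to 445 higher, 388 to 469 lower), 85 to 119 for the transgene (21 to 33 more positive, 63 to 91 more negative) and 351 to 651 for age (291 to 473 more positive, 53 to 178 more negative). The latter count was 178, 135 and 53 without replicates 1, 2 and 3 of the P28 Rorb-/-;CrxpNrl mice. With only the groups compared, 40 genes were more positive with the transgene, and with array weights 191 were more negative at P28. With a replicate block 832 genes were called, 831 of them also called without it, and each of replicates 2, 3 and 4 correlated best with its own number while replicate 1 did not.

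Among named genes, Flt1 turned to -0.080 with the mean of all probe sets and Lyz1 to -0.084 without probe sets that can match several transcripts. Genes near 0 also turned: Mapk4 to -0.011 (arrays shifted to the same median), to -0.023 (array weights) and within -0.16 to 0.18 on leaving out mice, Thrb to -0.013 (array weights) and within -0.092 to 0.12, Rtp4 within -0.054 to 0.63, and Insm1 within -0.32 to 0.0081. In the test of the transgene Guca1b lay within -0.018 to 0.58. In the test of age Lyz1 turned to 0.14 without probe sets that can match several transcripts and Pdxdc1 to -0.049 with the mean of all probe sets. Without the dimmest 40% of genes, where fewer genes are tested, 11 amacrine, 2 horizontal and 6 vessel genes fell. In 5 settings 1 cone gene fell: array weights, the replicate block, only the groups compared, and without Rorb-/-;CrxpNrl replicate 1 or +/+;CrxpNrl replicate 3. The Slc16a1 difference in the test of the transgene was called in 17 of 26 settings. The median over all genes stayed between -0.01 and 0.00 under each scaling.

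Precision is limited by 4 mice per group, and signals at the lower quartile or near the top of the arrays compress differences.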
